A study of Mus musculus with 22 samples.

Results

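Adipokines are proteins that fat tissue secretes into blood or onto neighbouring cells, and 8 of their genes were followed through tumor-associated and control inguinal white adipose tissue (IWAT) of lean and obese mice: Lep, Adipoq, Retn, Cfd, Rbp4, Rarres2, Nampt and Apln. The genes were chosen by name and not by their values. All 8 are among the 23420 gene symbols of the count table, and all 8 passed the filter on low counts, which left 14458 genes for testing. In control IWAT, obesity went with 6.11-fold higher Lep, 2.77-fold lower Retn and 4.36-fold lower Cfd. In obese mice, the pad that carried a tumor had 3.26-fold lower Lep, 2.87-fold lower Adipoq, 3.47-fold lower Retn and 1.92-fold lower Rbp4 than the opposite pad. The call of Rbp4 was lost without obese tumor-associated mice 0 and 4. In lean mice, none of the 8 passed the test between pads in the fit to all libraries. Retn passed when the lean libraries were fitted alone, and Adipoq, Retn and Rbp4 were each lower in 5 of 5 lean tumor-associated pads. In bulk tissue, fewer cells of a type and less RNA per cell cannot be told apart.

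The 22 libraries came from 11 wildtype female C57Bl/6 mice, 5 lean animals on a chow diet and 6 obese animals on a high fat diet (HFD) for 16 weeks, which were about 20 weeks old when the tumor cells were given. Cells of E0771, a breast cancer line from the same strain, were injected in Matrigel and PBS into the left pad (tumor-associated IWAT), while the right pad received Matrigel and PBS alone (control IWAT), so that the 4 groups are 2 pads of 5 lean and of 6 obese mice. Pads were collected 2 weeks after injection, the inguinal lymph node was removed, the sheet of fat that covered the tumor was discarded and, for sequencing, the most peripheral fat was left out. The control pad is thus fat of a mouse that carries a tumor on its other side, and no pad came from a mouse without a tumor.

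Leptin, from Lep, is made by adipocytes, tells the brain how much fat is stored, and rises with fat mass. Adiponectin, from Adipoq, also comes from adipocytes and raises insulin sensitivity, and its blood level usually falls in obesity. Adipsin, from Cfd, is the complement protease that cleaves factor B, and in mice it is among the most abundant products of fat cells. Resistin, from Retn, is an adipocyte product in mice that opposes insulin action. Retinol-binding protein, from Rbp4, carries vitamin A in blood. Chemerin, from Rarres2, attracts immune cells through the receptor of the gene Cmklr1. Nampt encodes the enzyme that recycles nicotinamide into NAD and is also found outside cells, and Apln encodes apelin, a peptide that acts on vessels and heart through Aplnr.

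The 250 bases upstream of the start of Lep, Adipoq, Retn and Cfd (RefSeq, GRCm38.p6, the mm10 assembly) are shown, because these 4 genes had the highest levels per length in lean control IWAT and, between the diets, Lep was higher, Retn and Cfd were lower and Adipoq did not pass. In each, read 5′ to 3′ on the strand of the gene, capitals mark matches on either strand to 5 letter strings. These were TATAA as the core of a TATA box, the box named for its letters CCAAT, the GC box written here as GGGCGG, the palindrome TTGCGCAA to which C/EBP factors can bind, and the E-box with the letters CACGTG. The windows lie at chr6:29059971-29060220 for Lep, chr16:23146286-23146535 for Adipoq, chr8:3655520-3655769 for Retn and chr10:79890603-79890852 for Cfd, all on the + strand.
Lep: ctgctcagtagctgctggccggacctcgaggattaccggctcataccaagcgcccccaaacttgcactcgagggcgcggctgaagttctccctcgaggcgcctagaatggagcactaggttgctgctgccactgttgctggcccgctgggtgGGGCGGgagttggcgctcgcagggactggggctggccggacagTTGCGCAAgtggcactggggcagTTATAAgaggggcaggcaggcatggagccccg
Adipoq: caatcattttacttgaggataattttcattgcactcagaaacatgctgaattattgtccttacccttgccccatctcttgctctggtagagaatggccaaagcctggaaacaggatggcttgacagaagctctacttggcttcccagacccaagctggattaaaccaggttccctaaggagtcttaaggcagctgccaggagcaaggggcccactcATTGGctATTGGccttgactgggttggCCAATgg
Retn: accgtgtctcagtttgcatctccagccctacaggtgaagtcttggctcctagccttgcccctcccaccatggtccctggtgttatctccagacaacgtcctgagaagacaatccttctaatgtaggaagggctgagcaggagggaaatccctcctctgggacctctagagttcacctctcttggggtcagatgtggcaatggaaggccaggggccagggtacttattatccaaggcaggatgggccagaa
Cfd: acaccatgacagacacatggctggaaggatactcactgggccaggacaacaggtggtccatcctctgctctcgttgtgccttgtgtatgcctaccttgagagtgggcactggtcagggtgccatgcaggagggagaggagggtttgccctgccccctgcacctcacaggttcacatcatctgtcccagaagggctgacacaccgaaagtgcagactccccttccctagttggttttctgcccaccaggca
The Lep window holds TTGCGCAA from -55 to -48 before the start, GGGCGG from -98 to -93 and overlapping TATAA matches on both strands from -32 to -27. Of 32851 mouse promoter windows of the same length, 0.164% hold TTGCGCAA, 22.8% TATAA, 32.7% GGGCGG, 33.8% CCAAT and 6.02% CACGTG. The Adipoq window holds CCAAT 3 times, on the - strand from -34 to -30 and from -27 to -23 and on the + strand from -7 to -3. The windows of Retn and Cfd hold none of the 5 strings. The Lep window has 16 CG pairs against 2 in Retn, 2 in Cfd and 0 in Adipoq, and the median over all promoter windows is 6. Windows for Rbp4, Nampt and Apln were also found in the RefSeq table, with GGGCGG in at least 1 window of each, and 7 of the 8 genes matched. These matches describe letters only, and binding of a factor was not measured.

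In GENCODE M21 on GRCm38, all 8 are protein-coding genes: Lep at chr6:29060220-29073877, Adipoq at chr16:23146536-23158028, Retn at chr8:3655770-3660110, Cfd at chr10:79890853-79892655 and Nampt at chr12:32819545-32853349 on the + strand, and Rbp4 at chr19:38116629-38125281, Apln at chrX:48025146-48034853 and Rarres2 at chr6:48569696-48572789 on the - strand. Exons of Rarres2 overlap those of Lrrc61 on the opposite strand over 892 bases, and since the strand setting of the counting is not given in the sources used here, reads from that stretch cannot be told apart. The other 7 share no exon bases with an annotated gene.

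Between 5759775 and 8598108 reads per library fell on genes. The 8 adipocyte markers, Plin1, Plin4, Cidec, Fabp4, Lipe, Pparg, Aqp7 and Pnpla2, summed to 8671 to 12458 CPM (counts scaled to the normalised library total) in lean control, 5421 to 9472 in lean tumor-associated, 10837 to 19357 in obese control and 1612 to 10550 in obese tumor-associated libraries, so all libraries hold adipocyte RNA as labelled. The obese tumor-associated pads of mice 0 and 4 had the lowest marker sums, 2960 and 1612 CPM, and for the adipokines and the genes listed with them, values of this group are also given without both, an alternative added after seeing the data, where that ended a call or moved a value by over 1.5 times. Replicates are separate mice.

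Compared per length of exon, as CPM per kilobase (RPKM), Cfd was the most abundant of the 8 in lean control IWAT at 3235 ± 633 RPKM (SD, n = 5), ahead of Adipoq at 1102 ± 136, Retn at 363 ± 65.0 and Lep at 204 ± 68.4. In obese control IWAT the order was different, with Adipoq at 1453 ± 339 RPKM (SD, n = 6), Lep at 1245 ± 382, Cfd at 741 ± 262 and Retn at 131 ± 28.8. The mean RPKM of Adipoq and Lep in that group differ by less than their SDs. Apln had the lowest RPKM of the 8 in all 4 groups, from 3.12 ± 0.807 in lean control (n = 5) to 5.61 ± 2.36 in obese control (n = 6).

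**Figure D1:**
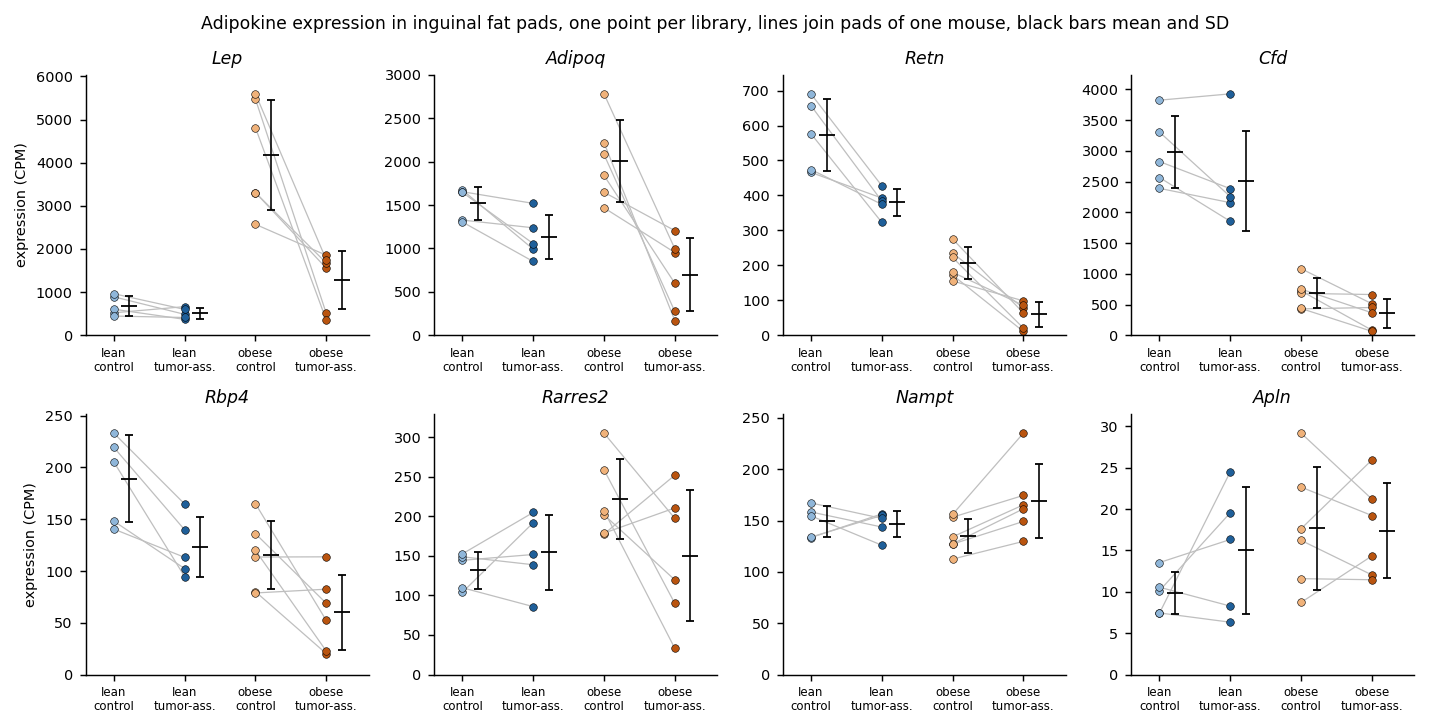
Expression of the 8 adipokine genes in CPM (y axis, linear from 0) in the 4 groups (x axis), with 1 point per library, grey lines joining the pads of a mouse and black bars for mean and SD (n = 5 lean, 6 obese). Lep rises with obesity and drops in the obese tumor-associated pad, Retn steps down over all 4 groups without overlap, Cfd is low in both obese groups, and Nampt stays between 112 and 235 CPM.

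Across all tested genes, edgeR called 4.18% changed, in either direction, between lean tumor-associated and lean control IWAT, and 0 of the 8 adipokines were among them by edgeR, DESeq2 or the fit with the mouse as a block. None had an unadjusted p under 0.05 in any of these 3 fits. Between the pads of obese mice, 4 of 8 were lower, against 27.7% of all tested genes, and 1 of 8 was higher, against 26.8%. Between obese and lean control IWAT, 1 of 8 was higher, against 9.54% of all genes, and 2 of 8 were lower, against 7.53%. Between obese and lean tumor-associated IWAT, 1 of 8 was higher, against 24.7%, and 3 of 8 were lower, against 22.4%. With so few genes, a single gene moves such a share by much, and nothing particular to adipokines is read from it. The median log2 fold change of the 8 was -0.34 between lean pads and -0.94 between obese pads, where the medians of all tested genes were 0.01 and -0.02. It was 0.13 between control pads of the diets and -0.37 between their tumor-associated pads, where the medians of all genes were 0.04 and 0.03. The comparisons share groups, so they are not independent of each other. Without obese tumor-associated mice 0 and 4, the counts between obese pads were 3 lower and 0 higher, those between control pads 3 lower and 2 higher, and 1 was lower between lean pads.

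**Figure D2:**
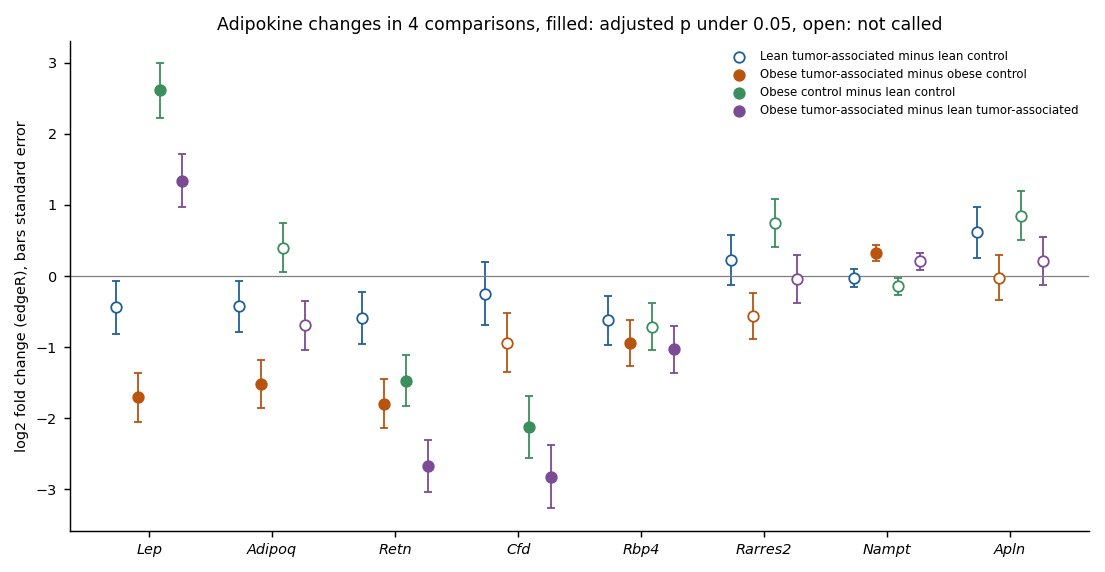
Log2 fold change (y axis) of each adipokine gene (x axis) in 4 comparisons (colours), from the edgeR fit to 22 libraries, with standard error bars, and filled symbols where the adjusted p is under 0.05. Lep has opposite signs for obesity, 2.61, and for the tumor in obese mice, -1.71, whereas Retn is negative in all 4 comparisons.

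Among the 8, Lep was the only gene called higher with obesity in the fit to all libraries. Lep was at 891, 521, 962, 604 and 445 CPM in the lean control pads of mice 0, 2, 3, 6 and 9, and at 484, 663, 599, 369 and 411 CPM in their tumor-associated pads. In obese mice it ran from 2571 over a median of 4059 to 5596 CPM in control pads, and from 352 over 1615 to 1854 CPM in tumor-associated pads. Each obese control library was above each lean one, and the log2 difference was 2.61 ± 0.39 (SE, edgeR adjusted p = 0.000133; exact permutation p = 0.002165 over 11 mice, the smallest they can give). The pads of obese mice did not overlap either, with a log2 fold change of -1.71 ± 0.35 (edgeR adjusted p = 0.00054) and lower Lep in 6 of 6 tumor-associated pads (exact permutation p = 0.03125, the smallest 6 pairs can give). The tumor-associated pad kept 9.23% and 7.31% of the control pad's CPM in obese mice 0 and 4, and 31.3% to 72.1% in the other 4. Without mice 0 and 4, it was -1.31 ± 0.25 on the log2 scale (edgeR adjusted p = 0.000616). In lean mice Lep was lower in 4 of 5 tumor-associated pads, the groups overlapped, and its log2 change of -0.44 ± 0.37 did not pass (edgeR adjusted p = 0.705). The obese tumor-associated pads were still 2.54-fold above the lean ones (log2 1.34 ± 0.37, edgeR adjusted p = 0.00529), though that of mouse 0 lay within the lean range and that of mouse 4 below it.

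Adipoq RNA was lower in the obese tumor-associated pad and did not pass the test for obesity. Adipoq was at 1674, 1327, 1647, 1305 and 1654 CPM in lean control pads of mice 0, 2, 3, 6 and 9, and at 992, 1238, 1056, 850 and 1520 CPM in the tumor-associated pads of the same mice. Obese control pads ran from 1469 over a median of 1962 to 2782 CPM, and obese tumor-associated pads from 169 over 776 to 1205 CPM, without overlap between these groups. The log2 fold change between obese pads was -1.52 ± 0.33 (edgeR adjusted p = 0.000957), with Adipoq lower in 6 of 6 mice, and was -1.12 ± 0.21 without mice 0 and 4 (edgeR adjusted p = 0.000406). All 5 lean tumor-associated pads were also below their control pads, at 59.2% to 93.3% of them, with a log2 fold change of -0.43 ± 0.36 (edgeR adjusted p = 0.697; exact permutation p = 0.0625, the smallest 5 pairs can give). Obese control pads were 1.32-fold higher than lean ones, with overlap (log2 0.40 ± 0.35, edgeR adjusted p = 0.469).

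Retn RNA was lower with obesity and lower again in the tumor-associated pad, and each of the 4 groups was separate from the next. Retn was at 577, 466, 657, 691 and 474 CPM in lean control pads of mice 0, 2, 3, 6 and 9 and at 323, 393, 384, 428 and 375 CPM in their tumor-associated pads. Obese control pads ran from 155 over 201 to 275 CPM, and obese tumor-associated pads from 10.9 over 71.0 to 98.4 CPM. Obesity in control pads gave a log2 fold change of -1.47 ± 0.35 (edgeR adjusted p = 0.00706), and the tumor in obese mice gave -1.79 ± 0.35 (edgeR adjusted p = 0.000351). Without mice 0 and 4 the latter was -1.37 ± 0.17. Between the tumor-associated pads of the diets the difference was 6.38-fold (log2 -2.67 ± 0.37, edgeR adjusted p = 2.19e-05). Within lean mice Retn was lower in 5 of 5 tumor-associated pads, and the log2 fold change of -0.59 ± 0.37 did not pass in the fit to all 22 libraries (edgeR adjusted p = 0.495). When the lean pads were fitted by themselves it was -0.61 ± 0.13 and passed (edgeR adjusted p = 0.0170), and it also passed without obese tumor-associated mice 0 and 4 (edgeR adjusted p = 0.0229).

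Cfd RNA was low in every obese pad. Cfd was at 2826, 2390, 3306, 2566 and 3824 CPM in lean control pads of mice 0, 2, 3, 6 and 9 and at 2384, 2157, 2255, 1853 and 3927 CPM in their tumor-associated pads. Obese control pads ran from 430 over 701 to 1082 CPM, and obese tumor-associated pads from 63.2 over 408 to 662 CPM, so no obese pad reached the lean range. The log2 fold change for obesity was -2.12 ± 0.44 in control pads (edgeR adjusted p = 0.00247) and -2.82 ± 0.45 in tumor-associated pads, or 7.06-fold (edgeR adjusted p = 7.53e-05). Between the pads of obese mice, Cfd was lower in 5 of 6 tumor-associated pads. The change of -0.94 ± 0.41 in log2 did not pass (edgeR adjusted p = 0.0602), but with the mouse as a block it was -1.30 ± 0.39 and passed (edgeR adjusted p = 0.0155), as it did by DESeq2 (adjusted p = 0.0380). Without mice 0 and 4 it was -0.48 ± 0.25 (edgeR adjusted p = 0.136). In mice 1 and 3 the tumor-associated pad held 97.3% and 105% of the control pad's Cfd, and in mice 0 and 4 it held 11.4% and 14.5%.

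Rbp4 was lower in the obese tumor-associated pad than in either neighbouring group in the fit to all libraries. Rbp4 was at 205, 140, 219, 233 and 148 CPM in lean control pads of mice 0, 2, 3, 6 and 9 and at 94.6, 113, 140, 165 and 102 CPM in their tumor-associated pads. Obese control pads ran from 78.8 over 117 to 165 CPM and obese tumor-associated pads from 20.2 over 60.5 to 114 CPM, with overlap between all neighbouring groups. The log2 fold change between obese pads was -0.94 ± 0.32 (edgeR adjusted p = 0.0177), with 4 of 6 pads lower (exact permutation p = 0.125). It no longer passed without mice 0 and 4 (-0.57 ± 0.24, edgeR adjusted p = 0.0640) or in a fit to the obese libraries alone (edgeR adjusted p = 0.0632). The difference between the tumor-associated pads of the diets was -1.03 ± 0.33 on the log2 scale (edgeR adjusted p = 0.0153), and it did not pass in a fit to these libraries alone (edgeR adjusted p = 0.0579). Over 28 alternatives it ran from -1.32 to -0.64. Between control pads of the diets, the log2 difference of -0.71 ± 0.33 did not pass in the fit to all libraries (edgeR adjusted p = 0.144). It passed in the control libraries alone (edgeR adjusted p = 0.0247) and without obese tumor-associated mice 0 and 4 (edgeR adjusted p = 0.0219). In lean mice Rbp4 was lower in 5 of 5 tumor-associated pads, at 46.1% to 80.6% of the control pad (log2 -0.62 ± 0.35, edgeR adjusted p = 0.416).

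Rarres2 RNA did not pass in any of the comparisons in the fit to all libraries. Rarres2 was at 144, 104, 149, 110 and 153 CPM in lean control pads of mice 0, 2, 3, 6 and 9 and at 152, 192, 139, 85.9 and 205 CPM in their tumor-associated pads. Obese control pads ran from 178 over 205 to 305 CPM and did not overlap the lean control pads (exact permutation p = 0.002165, the smallest 11 mice can give). The log2 difference of 0.75 ± 0.34 gave an edgeR adjusted p of 0.136 in the fit to all libraries and of 0.00489 in a fit to the control libraries alone, and it also passed without mice 0 and 4 of the obese tumor-associated group (edgeR adjusted p = 0.0164). Obese tumor-associated pads spread widest, from 33.1 over 159 to 252 CPM, with 4 of 6 below their control pads (log2 -0.56 ± 0.32, edgeR adjusted p = 0.145). That change was -0.21 ± 0.23 without mice 0 and 4 (edgeR adjusted p = 0.477).

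Nampt was the most even of the 8, and Apln the one with the fewest reads. Nampt had a mean of 149 ± 15.2 CPM in lean control (SD, n = 5), 147 ± 12.5 in lean tumor-associated (n = 5), 135 ± 16.7 in obese control (n = 6) and 169 ± 35.8 in obese tumor-associated pads (n = 6). It was higher in 6 of 6 obese tumor-associated pads, at 114% to 151% of the control pad, a log2 fold change of 0.32 ± 0.12 (edgeR adjusted p = 0.0237). Without mice 0 and 4 it was 0.14 ± 0.10 (edgeR adjusted p = 0.266), and without mouse 4 alone, whose tumor-associated pad held 235 CPM, it was 0.19 ± 0.10 (edgeR adjusted p = 0.108). The call was also lost in the obese libraries alone (edgeR adjusted p = 0.0684), without the obese tumor-associated pad of mouse 0 (0.0501) and without the obese control pad of mouse 1, 3 or 8 (0.0529, 0.0515 and 0.0588). Apln had 41 to 204 counts per library and a mean between 9.82 ± 2.54 CPM in lean control (n = 5) and 17.7 ± 7.44 CPM in obese control pads (n = 6). The groups overlapped, and its log2 differences were 0.61 ± 0.35 between lean pads, -0.02 ± 0.32 between obese pads and 0.85 ± 0.34 between control pads of the diets (edgeR adjusted p = 0.0920 for the last). The difference between control pads passed in a fit to the control libraries alone (log2 0.84, edgeR adjusted p = 0.0484).

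The tumor change in obese mice minus that in lean mice was called for 0 of 8 adipokines by edgeR and by DESeq2, against 4.92% of all tested genes by edgeR, and 3 of 8 had an unadjusted p under 0.05 in edgeR. These 3 were Lep at -1.27 ± 0.50, Adipoq at -1.09 ± 0.49 and Retn at -1.20 ± 0.50 on the log2 scale (edgeR adjusted p = 0.0960, 0.127 and 0.106). A tumor effect that differs between the diets was thus not shown for any of the 8 in the fit to all libraries. Over 28 alternatives the difference ran from -1.456 to -0.859 for Lep, from -1.327 to -0.677 for Adipoq and from -1.505 to -0.760 for Retn. Without obese tumor-associated mice 0 and 4, 0 of 8 passed and 3 had an unadjusted p under 0.05. The median difference of the 8 was then -0.55, where it was -0.74 in the fit to all libraries. Without obese tumor-associated mouse 1, which kept the most Lep, Adipoq and Retn of its group, 2 passed: Adipoq (edgeR adjusted p = 0.0493) and Retn (edgeR adjusted p = 0.0458).

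Markers of adipocytes and other cell types were counted between the same groups. Of all tested genes, 26.8% were called higher and 27.7% lower between obese pads, and 4.18% in either direction between lean pads. The 8 adipocyte markers were called lower in 8 of 8 between obese pads, with a median log2 fold change of -1.23. Between lean pads 0 of 8 were called, although all had negative log2 fold changes, from -0.66 to -0.30, with a median of -0.59. Of 10 macrophage markers, such as Cd68 and Csf1r, 9 were higher between obese pads and 8 between lean pads. Their summed level ran from 1700 to 4878 CPM in obese tumor-associated and from 1139 to 1575 CPM in obese control libraries, and from 1711 to 3683 CPM against 775 to 1581 CPM in lean ones. Of 7 epithelial markers 6 were lower between obese pads, and of 6 endothelial markers 4 were lower. Of 6 fibroblast markers 2 were higher and 2 lower, near the shares of all genes. Between obese pads without mice 0 and 4, the fibroblast markers counted 2 higher and 0 lower and the endothelial markers 3 lower. The adipocyte, macrophage and epithelial counts between obese pads were the same. Between lean pads in that fit, 4 of 8 adipocyte markers were called lower, with a median of -0.60, and 9 of 10 macrophage markers higher. Of 14517 genes tested there, 438 were lower and 737 higher. All of 10 germline and embryonic genes, such as Rhox5 and Hmga2, a list first picked on these libraries, were higher between obese pads. Their summed level was 40.1 to 998 CPM in obese tumor-associated libraries, highest in mouse 4, against 5.98 to 85.6 CPM in obese control, 0.621 to 9.08 CPM in lean tumor-associated and 0.348 to 2.45 CPM in lean control libraries. The part of these genes' source in the adipokine changes was not tested. None of 6 lymphocyte genes passed in any comparison, but the obese control libraries of mice 1 and 3 held 395 and 364 CPM of them and the obese tumor-associated library of mouse 3 held 101, where no other library passed 55.2 CPM. Of 4 skeletal muscle genes 2 were tested, with the obese control library of mouse 1 at 546 CPM and the obese tumor-associated library of mouse 8 at 66.7 CPM. Their part in the results was not tested.

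Set against the adipocyte markers of the same library, some adipokines differed from the markers beyond their spread over mice and others did not. Each value here is the log2 CPM of the adipokine minus the mean log2 CPM of the 8 markers, and 24 such differences, 3 for each gene, were computed, with p-values not adjusted. The mean of the markers itself was lower in 6 of 6 obese tumor-associated pads by 1.45 ± 1.28 (SD), with changes of -2.47 and -3.43 in mice 0 and 4 and a mean change of -0.71 ± 0.58 in the other 4 mice. It was lower in 5 of 5 lean ones by 0.56 ± 0.27 and 0.31 higher in obese than in lean control pads. Relative to the markers, Lep was 2.30 higher in obese than in lean control pads, and Retn, Cfd and Rbp4 were different by -1.79, -2.49 and -1.04 (exact permutation p = 0.002165 for each, the smallest that 11 mice can give), with no overlap. Adipoq differed by 0.06, with overlap and an SD of 0.19 among lean and 0.10 among obese control pads (exact permutation p = 0.487). With the median of the markers in place of their mean, the differences for Lep, Retn, Cfd, Rbp4 and Adipoq were 2.67, -1.42, -2.12, -0.67 and 0.44.

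**Figure D3:**
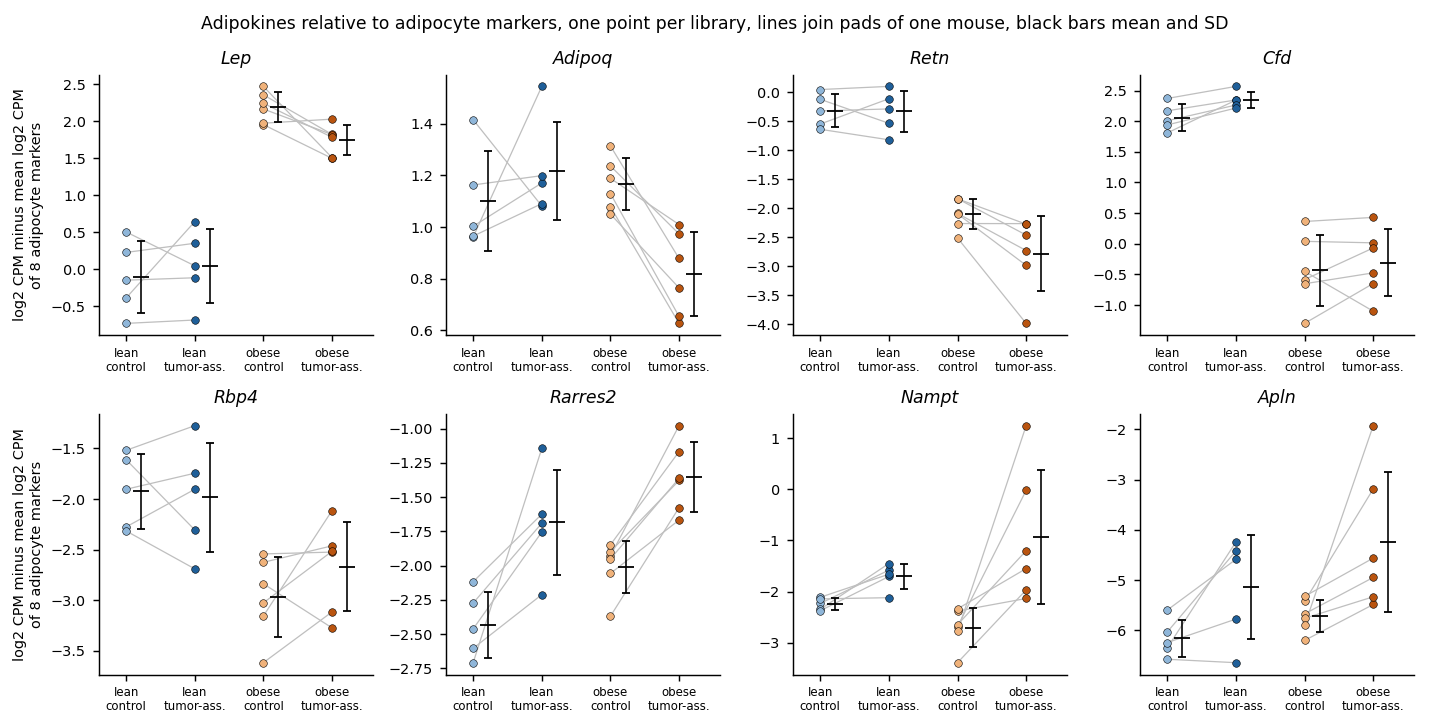
Log2 CPM of each adipokine minus the mean log2 CPM of 8 adipocyte markers in the same library (y axis) in the 4 groups (x axis), with 1 point per library, lines joining the pads of a mouse and black bars for mean and SD. Adipoq lies within 0.63 to 1.54 in all groups, at 1.05 to 1.31 in obese control and 0.63 to 1.01 in obese tumor-associated pads. Lep lies near 0 in lean and near 2 in obese pads. Relative to the markers, which themselves fall, Nampt, Apln and Rarres2 rise in all 6 obese tumor-associated pads.

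Between the pads of obese mice, the relative level of Adipoq was lower in 6 of 6 by 0.35 ± 0.12 (SD) and that of Retn in 6 of 6 by 0.68 ± 0.49 (exact permutation p = 0.03125 for each, the smallest 6 pairs can give), although for Retn the change in mouse 4 was -0.0013. Lep was lower in 5 of 6, by 0.45 ± 0.33 (exact permutation p = 0.0625). Cfd and Rbp4 differed from the markers' change by less than their SDs, by 0.12 ± 0.46 and 0.30 ± 0.50 (exact permutation p = 0.469 and 0.156). Single mice ran from -0.65 to 0.65 for Cfd and from -0.44 to 1.04 for Rbp4, which was higher in 5 of 6. A test on 6 pairs that does not pass cannot show that a gene follows the markers. Nampt, Apln and Rarres2 were higher relative to the markers in 6 of 6 mice, by 1.76 ± 1.37, 1.47 ± 1.39 and 0.65 ± 0.20 (exact permutation p = 0.03125 for each). These differences contain the fall of the markers, and the p-values are not of the genes' own levels. The genes' own edgeR log2 fold changes between obese pads were 0.32, -0.02 and -0.56. Mice 0 and 4 had the largest of the relative changes, 2.66 and 4.02 for Nampt and 2.24 and 3.98 for Apln. Without these mice the means were 0.97 ± 0.57, 0.66 ± 0.15 and 0.54 ± 0.12, higher in 4 of 4 (exact permutation p = 0.125 for each, the smallest 4 pairs can give), and that of Rbp4 was 0.06 ± 0.39. In lean mice, Cfd, Nampt and Rarres2 were higher relative to the markers in 5 of 5 tumor-associated pads, by 0.29 ± 0.14, 0.54 ± 0.33 and 0.75 ± 0.47 (exact permutation p = 0.0625 for each, the smallest 5 pairs can give). Their own edgeR log2 fold changes between lean pads were -0.25, -0.03 and 0.23. Adipoq, Lep, Retn and Rbp4 were within 0.16 of the markers' change in lean mice, which is less than their SDs over mice.

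The receptors and partners of the adipokines were read from a list of 15 genes, all of which were tested. Between lean pads 2 were higher and 0 lower, where 4.18% of all tested genes passed in either direction. Between obese pads 2 were higher and 3 lower, against 26.8% and 27.7% of all genes. Between control pads of the diets 4 were higher and 0 lower, against 9.54% and 7.53%, and between their tumor-associated pads 2 were higher and 3 lower, against 24.7% and 22.4%. Between obese pads without mice 0 and 4, 3 were higher and 3 lower. Lepr, the leptin receptor, had means of 17.2 ± 3.33 CPM in lean control (SD, n = 5), 29.8 ± 6.80 in lean tumor-associated (n = 5), 30.0 ± 17.6 in obese control (n = 6) and 12.4 ± 5.89 CPM in obese tumor-associated pads (n = 6). Its log2 fold change was -1.27 ± 0.36 between obese pads (edgeR adjusted p = 0.00601) and 0.79 ± 0.39 between lean pads (edgeR adjusted p = 0.331). The difference between these changes was -2.07 ± 0.53 (edgeR adjusted p = 0.0463), and it did not pass in 17 of 28 alternatives, such as without mice 0 and 4 (edgeR adjusted p = 0.0520). Of the adiponectin receptors, Adipor2 was lower between obese pads by 0.78 ± 0.20 (log2, edgeR adjusted p = 0.00297), while Adipor1 stayed at group means of 120 to 140 CPM and passed in no comparison. Cdh13, the T-cadherin that binds adiponectin multimers, was higher in obese than in lean control pads by 0.67 ± 0.17 (edgeR adjusted p = 0.00862).

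Among the receptors of chemerin, Gpr1 was higher with obesity in control pads, by 1.24 ± 0.31 (edgeR adjusted p = 0.00872), and lower in the obese tumor-associated pad, with a log2 fold change of -1.10 ± 0.29 (edgeR adjusted p = 0.00309), at means of 3.10 to 7.35 CPM. Cmklr1 was lower in obese than in lean tumor-associated pads, with a log2 difference of -0.77 ± 0.23 (edgeR adjusted p = 0.0101). C3ar1, the receptor of the complement fragment C3a and a gene of myeloid cells, rose from 23.8 ± 4.56 to 69.3 ± 23.6 CPM between lean pads (n = 5) and from 45.9 ± 13.9 to 185 ± 54.4 CPM between obese pads (n = 6), with edgeR adjusted p-values of 0.00167 and 4.62e-06. Cfb, the factor B that adipsin cleaves, was higher between lean pads (log2 0.93 ± 0.23, edgeR adjusted p = 0.0267). This call was lost without the tumor-associated pad of lean mouse 0, 2 or 3 or the control pad of lean mouse 0, 2, 3 or 6, with edgeR adjusted p-values from 0.0505 to 0.131. C3 was lower in obese than in lean tumor-associated pads (log2 -1.26 ± 0.36, edgeR adjusted p = 0.00775). Cap1, which has been described as a resistin receptor, was higher between obese pads by 0.61 ± 0.10 (edgeR adjusted p = 7.01e-05). Aplnr, the apelin receptor, Stra6 and its relative Stra6l (listed as 1300002K09Rik), which take up retinol, and Ttr, which carries Rbp4 in blood, did not pass in any comparison.

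**Figure D4:**
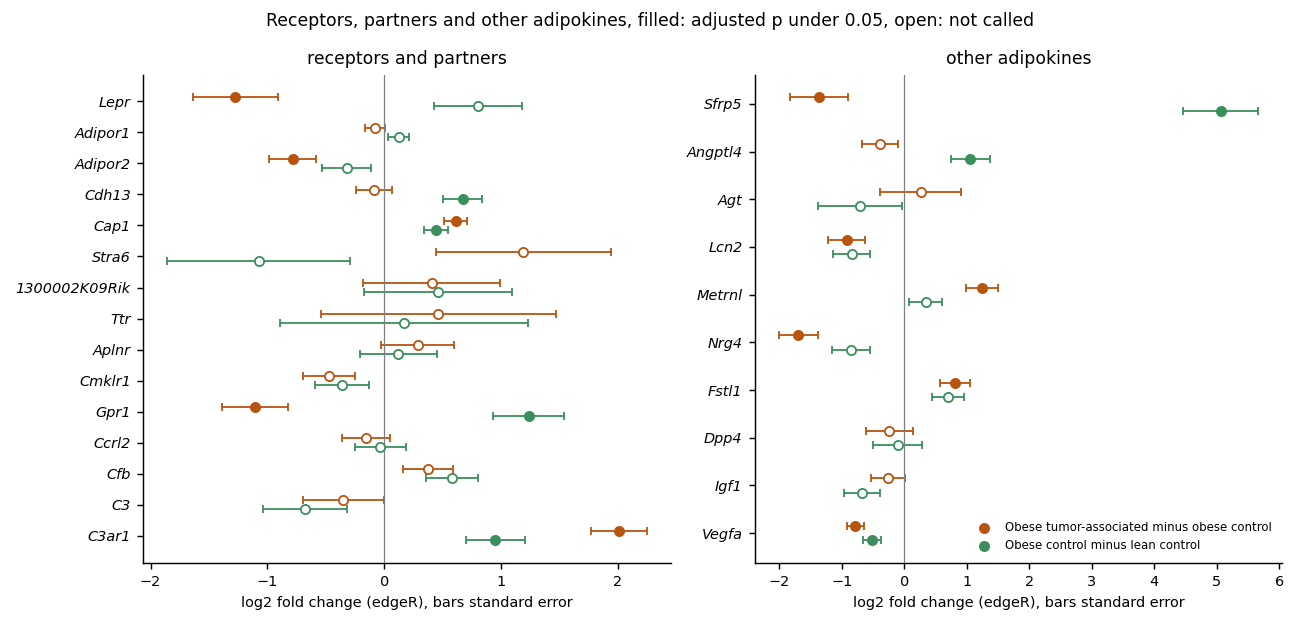
Log2 fold change (x axis) with standard error of 15 receptor and partner genes (left) and 10 further adipokine genes (right) for obese tumor-associated against obese control pads and for obese against lean control pads (colours), from edgeR, filled where the adjusted p is under 0.05. Lepr and Gpr1 fall in the obese tumor-associated pad while C3ar1 rises, and Sfrp5 has the largest change with obesity, 5.07.

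Of the 3 genes that help adiponectin fold and leave the cell, all 3 passed between obese pads, where 26.8% of all tested genes were higher and 27.7% lower. Ero1l and Erp44, which form and check its disulfide bonds, were higher, by 0.92 ± 0.18 and 0.37 ± 0.08 on the log2 scale (edgeR adjusted p = 0.000433 and 0.000691). Gstk1, described as an aid to adiponectin assembly, was lower, with -0.96 ± 0.26 (edgeR adjusted p = 0.00391). All 3 also passed without mice 0 and 4, with smaller changes of 0.58 for Ero1l and -0.60 for Gstk1. None of these 3 passed between lean pads or between control pads in the fit to all libraries. Between control pads, 1 was called lower without obese tumor-associated mice 0 and 4. Around Nampt, 10 of 11 genes of NAD metabolism were tested. Between obese pads the NAD-consuming genes Cd38 and Parp1 were higher, by 0.61 ± 0.23 and 0.51 ± 0.17 (edgeR adjusted p = 0.0311 and 0.0140), and the nicotinamide methylase gene Nnmt was lower, with -0.97 ± 0.29 (edgeR adjusted p = 0.00825). Cd38 at 0.53 and Parp1 at 0.28 did not pass without mice 0 and 4 (edgeR adjusted p = 0.0742 and 0.163), and Nnmt at -0.63 did. Parp1 also lost the call without the tumor-associated pad of obese mouse 4 (edgeR adjusted p = 0.0531). Cd38 lost it with upper-quartile normalization, in the obese libraries alone, without the tumor-associated pad of obese mouse 0 or 1 and without the control pad of obese mouse 0, 2, 4 or 8 (edgeR adjusted p from 0.0502 to 0.0961). No gene of this list passed between lean pads. Of 3 resistin-like genes, 1 was tested, Retnla, which was lower in obese than in lean tumor-associated pads (log2 -1.39, edgeR adjusted p = 0.0180). The edgeR adjusted p was 0.0630 in the tumor-associated libraries alone, and the log2 difference was -0.92 without mice 0 and 4. Retnla passed in no other comparison in the fit to all libraries. Without mice 0 and 4 it was also called lower in obese than in lean control pads (log2 -0.80).

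Of 14 further adipokine genes, 11 were tested. With obesity in control pads 3 were higher and 1 lower, against 9.54% and 7.53% of all tested genes. Sfrp5, a secreted Wnt inhibitor, went from 7.95 ± 3.14 CPM in lean (SD, n = 5) to 269 ± 109 CPM in obese control pads (n = 6), a log2 fold change of 5.07 ± 0.60 (edgeR adjusted p = 1.52e-05) and thus larger in size than that of Lep. The lipase inhibitor gene Angptl4 was also higher, with a mean of 517 ± 110 CPM in obese control pads, but it did not pass without the control pad of lean mouse 0, 2 or 6 (edgeR adjusted p = 0.0677, 0.0602 and 0.0730). Between obese pads 2 of the 11 were higher and 4 lower, against 26.8% and 27.7%. Metrnl was the higher of the former (log2 1.24 ± 0.25, edgeR adjusted p = 0.000513), with Fstl1 at 0.81, and Nrg4, whose product acts on liver, had the largest fall (log2 -1.70 ± 0.31, edgeR adjusted p = 0.000201), followed by Sfrp5, Lcn2 and Vegfa. Of these, Sfrp5 at -0.96 and Lcn2 at -0.63 did not pass without mice 0 and 4 (edgeR adjusted p = 0.0611 and 0.0650). Fstl1 was the only gene of this list that passed between lean pads in the fit to all libraries. There it rose from 416 ± 72.7 to 1075 ± 193 CPM (n = 5, log2 1.37 ± 0.27, edgeR adjusted p = 0.00501). Without obese tumor-associated mice 0 and 4, 1 gene of the list was called higher and 2 lower between lean pads.

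The genes whose log2 CPM pattern over the 22 libraries lay nearest to each adipokine were found among 12083 genes with a mean of at least 5 CPM, by the root mean square difference of centred values. For Adipoq these were Art3, Cd1d1 and Sncg, at 0.145 to 0.153, where the values of Adipoq itself spread by 0.914. For Lep they were Syp, Myl4 and Synpo2, at 0.266 to 0.412 against a spread of 1.32. For Retn they were Cdo1, Trhde and the insulin-responsive glucose transporter gene Slc2a4, at 0.311 to 0.416, and for Cfd they included the β3-adrenergic receptor gene Adrb3, at 0.510, and Plekhb1, at 0.520. Rbp4 lay nearest to Pm20d1, Aldh4a1 and Stap2, Rarres2 to Cygb, Slco2b1 and Pdgfd, and Nampt to Eif2a, Exosc10 and Top1. For Apln the nearest, C430049B03Rik, Pelo and Cep78, lay at 0.421 to 0.430 against its own spread of 0.614, so no gene followed it closely. The libraries share groups and mice, and these distances are descriptions.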

How the data were processed

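Expression was measured by sequencing of ribosomal RNA-depleted RNA in 22 libraries, which the sample labels place by diet, pad and mouse (0 sample columns left out). The deposited values are raw counts for each gene symbol: after trimming in prinseq, the authors aligned reads to mm10 with STAR 2.4.0f at default parameters and ran HTSeq on the alignments. Annotation and strand setting of the counting are not given in the sources used here. Besides 23420 symbols the table holds 5 lines that name no gene, and 38.5% to 48.8% of its reads met no gene. No 2 libraries of a group were copies of each other (chi-square per degree of freedom of at least 5.69).

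Differences were tested by edgeR 4.0.16 in R 4.3.3, with its quasi-likelihood F test after TMM and the default filter by group, all groups in 1 fit without a block, and Benjamini-Hochberg adjustment over 14458 genes at 0.05. Log2 CPM used a prior count of 2, and RPKM used GENCODE M21 exon lengths. Two-sided exact permutation tests of single values ran over sign flips of mice or 462 divisions of 11 mice. Motifs and likeness were computed in Python 3.11.15, and the fits were tested on simulated data. Alternatives were DESeq2 1.42.0, upper-quartile normalization, a minimum of 10 counts in each library, no filter, a fit to only the groups compared, a block for the mouse, and leaving out each library, to which leaving out obese tumor-associated mice 0 and 4 together was added after seeing the data.

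Pads pair by mouse because they come from the same animal: deviations from group means correlated within mice at a median of 0.508 for lean animals (5 of 5 pairs over 0.1) and 0.168 for obese animals (4 of 6). Genes, lists and tests were chosen with earlier results of these data known, and the germline and embryonic list was picked on these libraries. Named are the 8 adipokines, the called genes with the largest rise and fall of each list and comparison, receptors of the adipokines, and the 3 genes most like each adipokine; not all are printed, 2 of them are not reported here, and further called list genes were named after their values were seen.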

Additional observations from a re-analysis of the deposited data

Results flagged for a closer look

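The tumor change of Lepr, the leptin receptor gene, differed between obese and lean mice by a test of the difference itself, at -2.07 ± 0.53 on the log2 scale (edgeR adjusted p = 0.0463). Lepr was 0.79 higher in the tumor-associated pad of lean mice and 1.27 lower in that of obese mice on the same scale. Over 28 alternatives the difference stayed between -2.21 and -1.70, and its adjusted p ran from 0.00779 by DESeq2 to 0.0896; 17 of the 28 were past the threshold no longer, among them the fit without the filter on low counts and the fit without obese tumor-associated mice 0 and 4. Of 32 groups of adipokine values on the log2 CPM scale, 0 held a sample that stood apart from the others by the Dixon criterion, which chance alone meets in about 1 group of 20. On the untransformed scale, Cfd in lean tumor-associated pads was at 3927 CPM in mouse 9 and at 1853 to 2384 CPM in the other mice. This criterion looks for 1 sample and can miss 2 that lie apart together. In obese tumor-associated pads, Lep was at 505 and 352 CPM in mice 0 and 4 and at 1554 to 1854 CPM in the other mice. The criterion thus does not speak to mice 0 and 4 together.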

How the results depend on the processing

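Of 12 adipokine results called by edgeR, 331 of 341 alternatives kept direction and call, and 10 lost the call; these were of Rbp4 and Nampt and are given with those genes. For 52 called results of the receptor, partner and other listed genes, 99 of 1474 alternatives lost the call. Of 28 adipokine results not called, 762 of 795 alternatives changed neither, 17 passed the threshold and 16 turned the sign. The main log2 values that turned ran from -0.32 for Rbp4 to 0.21 for Apln. The turned values, in log2, were 0.072 for Rbp4 in the obese minus lean tumor change, -0.031 for Apln and 0.33 for Rarres2 between tumor-associated pads, all without obese tumor-associated mice 0 and 4, and 0.014 for Apln between obese pads with the mouse as a block. With each library left out the values ran from -0.071 to 0.023 for Nampt between lean pads, from -0.19 to 0.18 for Apln between obese pads and from -0.25 to 0.17 for Rarres2 between tumor-associated pads; the cause was not tested.

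Genes called between lean pads were 605, but 925 by DESeq2, 1437 in the lean libraries alone, 1175 without mice 0 and 4, and 183 to 952 with each library left out, with the low of 183 without lean tumor-associated mouse 2. Between control pads 2468 became 1606 to 3428 with each library left out. For the obese minus lean tumor change, 711 became 2365 by DESeq2, 18 without a filter, 199 without mice 0 and 4, and 1 to 3568 with each library left out, so that this count rests on single libraries. Adipokines called were 1 in place of 0 between lean pads, 3 in place of 5 between obese pads and 6 in place of 3 between control pads when these groups were fitted alone; without mice 0 and 4 they were 1, 3 and 5. For the obese minus lean tumor change they ran from 0 to 2 with each library left out. The replicate block changed the call of Cfd between obese pads and of no other adipokine, and gave 669, 7680 and 604 genes in place of 605, 7882 and 711. Upper-quartile normalization called 382 genes higher and 199 lower between lean pads, where TMM called 473 and 132, and 1068 higher and 1446 lower between control pads, where TMM called 1380 and 1088; it changed no adipokine call. Of the 24 values relative to adipocyte markers, 7 of 320 alternatives moved by over 1 SD, all with the median of the markers in place of their mean. With 41 to 204 counts per library, depth limits Apln most.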
